A study of Homo sapiens with 8 samples.

Results

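Transcripts of 8 chemokine genes, CCL2, CCL5, CCL7, CCL8, CCL11, CCL13, CCL20 and CX3CL1, were followed in cells that the study names 2D human intestinal epithelial cells (hIECs). The cells were exposed to inflammatory cytokines, to particulate matter (PM10), to both, or to neither. The genes were taken by name from the 60558 genes of each deposited table. Of the 8, CCL2, CCL5, CCL7, CCL11 and CX3CL1 were above 0 in at least 4 libraries, and CCL8, CCL13 and CCL20 were listed at 0 in all 8 libraries.

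The cells of every group came from H9, a widely used line of human embryonic stem cells. The 4 groups, each with 2 libraries, were normal hIECs without either agent, normal hIECs plus PM10, inflamed hIECs without PM10, and cells given both. Inflammation was induced with IFNγ and TNFα, each at 50 ng/ml over 10 days, and PM10 at 100 μg/ml was present for the last 7 of them. All libraries thus come from 1 stem cell line, and a further agent or genotype is not in the labels. The sample records give 10 days for every group and do not say whether the 2 libraries of a group came from separate cultures, so the p-values measure the spread between these libraries, which may be technical.

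Chemokines are small secreted proteins that guide leukocytes along a gradient by binding to G protein-coupled receptors. CC chemokines carry 2 adjacent cysteines near their amino terminus and attract mainly monocytes, T cells, eosinophils and dendritic cells, whereas CX3CL1 (fractalkine) is made as a membrane-bound protein with its chemokine domain on a stalk and can be shed by proteases. In the inflamed gut such chemokines are made by epithelial, stromal and immune cells, and many of their genes respond to NF-κB, which TNFα activates, and to IRF1, which IFNγ induces.

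CCL2, CCL7, CCL11, CCL8 and CCL13 lie in this order on the plus strand within 103.3 kb of chromosome 17 (34255274 to 34358610, GRCh38), and the proteins they encode are the monocyte chemoattractants and eotaxin. CCL5 lies 1.51 megabases further on, on the minus strand (35871491 to 35880793), CCL20 is on chromosome 2 (227805739 to 227817564), and CX3CL1 is on chromosome 16 (57372477 to 57385044). In GENCODE release 44 none of the 8 genes shares exon bases with another gene. CCL5 overlaps 1 long non-coding RNA without shared exon bases, and that RNA was listed at 0 in every library.

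The promoters of CCL7, CCL8 and CCL13 are shown because they are 3 genes of one cluster, of which CCL7 was measured in every library and CCL8 and CCL13 in none. The table of RefSeq promoters used here (GRCh38.p14) was matched for 4 of the 8 genes, CCL7, CCL8, CCL13 and CCL20. The 250 bases before each start site follow 5′ to 3′ on the plus strand, at chr17:34269971-34270220 for CCL7, chr17:34319185-34319434 for CCL8 and chr17:34356230-34356479 for CCL13. Capitals mark matches to 4 motifs searched on both strands, GGNNNTTCC (NF-κB), TTCNNNGAA (GAS, the gamma-activated sequence of IFNγ-responsive genes), GAAANNGAA (ISRE, the site of interferon regulatory factors) and, for the core promoter element at which transcription machinery assembles, TATAAA.
CCL7: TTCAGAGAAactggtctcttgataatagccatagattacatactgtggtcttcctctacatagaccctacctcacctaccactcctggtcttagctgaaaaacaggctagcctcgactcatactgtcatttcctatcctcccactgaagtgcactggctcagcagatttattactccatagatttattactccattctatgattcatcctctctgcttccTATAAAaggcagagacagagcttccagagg
CCL8: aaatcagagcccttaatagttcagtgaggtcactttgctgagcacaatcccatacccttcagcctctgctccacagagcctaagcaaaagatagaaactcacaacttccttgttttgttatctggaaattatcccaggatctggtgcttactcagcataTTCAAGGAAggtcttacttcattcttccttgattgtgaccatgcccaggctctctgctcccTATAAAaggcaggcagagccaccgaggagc
CCL13: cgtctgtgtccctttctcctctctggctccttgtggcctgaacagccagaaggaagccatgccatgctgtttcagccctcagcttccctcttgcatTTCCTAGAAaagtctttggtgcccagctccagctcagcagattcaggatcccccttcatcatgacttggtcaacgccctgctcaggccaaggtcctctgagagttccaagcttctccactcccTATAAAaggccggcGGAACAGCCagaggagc

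All 4 promoters held TATAAA, which was in 11.5% of the 35116 promoters of this length (300 bases, including 50 after the start site). In CCL7 and CCL8 these letters began 30 bases before the start site, within a run of 14 bases shared by both, and CCL8 and CCL13 shared a run of 15. The GAS letters were in CCL7, CCL8 and CCL13, against 7.66% of all promoters. The NF-κB letters were in CCL13 and CCL20, against 20.1%, and the ISRE letters in none of the 4, against 8.11%. A match of letters is a description of the sequence and not a binding site, and CCL8 and CCL13, which held the GAS letters, were listed at 0 throughout.

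The libraries were compared with the cell type they are named for. Of 13 epithelial markers, CDX2, CHGA, KRT20, LYZ, MUC2 and VIL1 were listed at 0 in all 8 libraries, CDH1 was above 0 in 1 library at 0.221 FPKM, and EPCAM reached at most 0.622 FPKM. KRT8 and KRT18 carried most of the summed epithelial markers, which stood at 614 to 667 FPKM without cytokines and 299 to 361 FPKM with them. All 10 mesenchymal markers were measured, with a summed level of 5010 to 5028 FPKM in normal hIECs, 4350 to 4369 with PM10, 5664 to 5731 in inflamed hIECs and 4995 to 5020 in inflamed hIECs with PM10. The markers within a list did not all move the same way. From normal to inflamed hIECs, ACTA2 went from 719 and 656 to 1011 and 1020 FPKM, and COL3A1 from 1034 and 1014 to 706 and 709. LGR5, an epithelial marker, went from 2.63 and 2.01 to 5.68 and 5.27 FPKM, and was at 8.28 and 7.92 in inflamed hIECs with PM10. The paper's own measurements differ from these values. By qPCR it reports LGR5 lower in inflamed cells, and by qPCR and staining it detects CDX2, LYZ, MUC2, CHGA and VIL1 in its 2D hIECs. Leukocyte markers were near absent, with 5 of 8 at 0 in every library and a sum of 0.333 to 1.83 FPKM, and PTPRC (CD45) was at 0 in the 4 libraries with cytokines. Endothelial markers summed to at most 0.486 FPKM. Several intestinal epithelial markers were thus at or near 0, while all 10 mesenchymal ones were measured. The name hIECs is therefore used here only as the study's label. Which cells made the chemokine transcripts was not tested. The part of the shift in epithelial and mesenchymal markers in the chemokine values was not tested. In bulk RNA, fewer cells of a type and less RNA per cell cannot be told apart.

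Values are FPKM, fragments scaled to transcript length and to the mapped fragments of the library, so levels can be compared between genes. The lowest value above 0 over all genes was 0.164 to 0.228 FPKM across libraries, which is not a detection limit of a given gene. Whether a listed 0 is a low level or has another source cannot be told from the FPKM values. The read counts behind the values were not used here. Mitochondrial transcripts took 17.02% and 24.2% of the FPKM in the 2 normal libraries and 15.5% to 20.4% in the other 6. Differences are given on the log2(FPKM + 1) scale, which understates changes of genes near or under 1 FPKM. limma tested 14206 genes, those reaching 1 FPKM in 2 or more libraries, and a gene was called at a Benjamini-Hochberg adjusted p under 0.05. The smallest p that an exact permutation test of a single gene (two-sided) allows here is 0.333. CCL2, CCL5, CCL7, CCL11 and CX3CL1 passed this filter, CCL5 and CCL11 only through the libraries with cytokines.

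**Figure D1:**
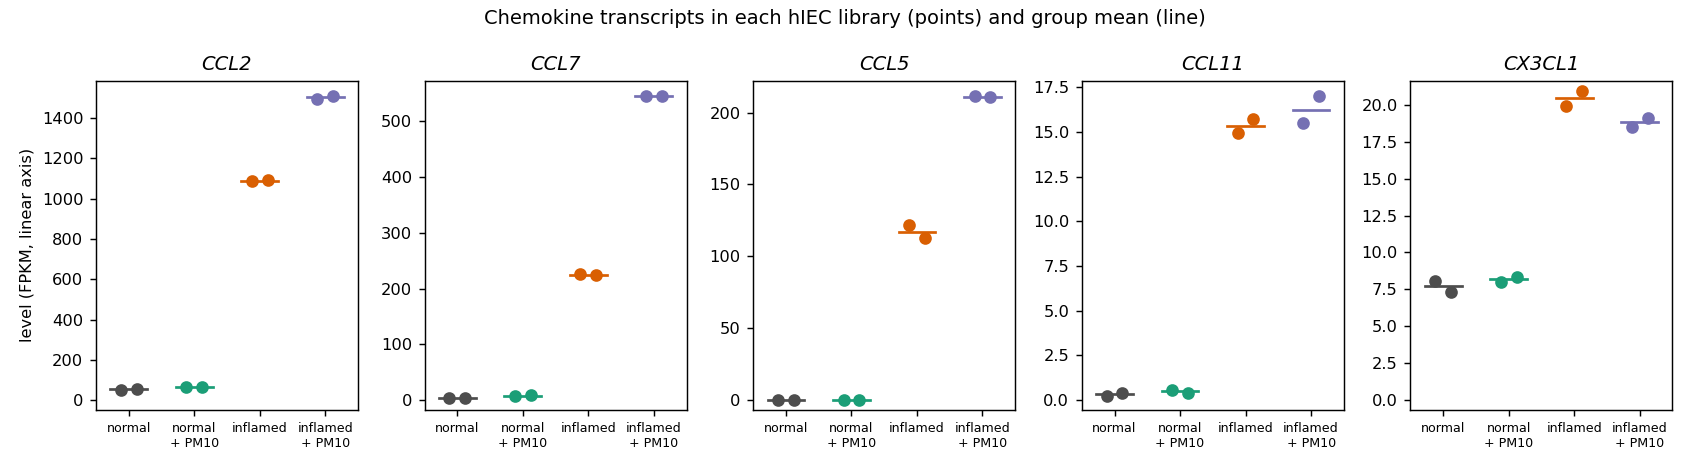
Level in FPKM (linear vertical axes, one scale per gene) of the 5 measured genes in each of the 8 libraries (points), with the mean of each group of 2 (lines). CCL2, CCL7 and CCL5 rose with cytokines and again with PM10 on top of cytokines, while CCL11 and CX3CL1 rose with cytokines and lay at 15.5 to 17.01 and 18.5 to 19.1 FPKM with PM10 added.

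The effect of the cytokines was examined by comparing inflamed with normal hIECs. All 5 measured genes were higher in inflamed hIECs, and limma called each of them higher, where 25.9% of all genes tested were called higher and 30.3% lower. The same comparison in the presence of PM10 uses the means of 4 other libraries, but both comparisons share the estimate of spread from the fit of all 8. There too each of the 5 was called higher, against 25.8% of all genes called higher and 39.6% lower. CCL5 and CCL11 entered the test only because they were high in these groups, so the 5 are a description and not a share of the 8 genes.

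CCL2, a ligand of CCR2 that draws monocytes, had the highest level of the 8 genes in every library. It was at 51.9 and 56.0 FPKM in normal hIECs and at 1089.6 and 1090.4 in inflamed hIECs. The means, 53.9 ± 2.9 and 1090.0 ± 0.63 FPKM (SD, n = 2), differed 20.2-fold, and by 4.31 on the log2 scale (standard error 0.048, limma adjusted p = 3.29e-09). With PM10 in both groups it went from 66.5 and 67.2 to 1496 and 1511 FPKM, a 22.5-fold difference of the means and 4.47 on the log2 scale (limma adjusted p = 2.21e-09). Among all genes in the tables, CCL2 ranked 1033rd by mean FPKM in normal hIECs, 44th in inflamed hIECs and 27th in inflamed hIECs with PM10.

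CCL7, another monocyte chemoattractant, lies next to CCL2 on the chromosome and was far weaker at the start. It was at 4.46 and 3.94 FPKM in normal hIECs and at 226 and 224 in inflamed hIECs, a 53.5-fold difference of the means. On the log2 scale the difference was 5.44 (standard error 0.064, limma adjusted p = 3.45e-09), and with PM10 in both groups it was 5.91 (limma adjusted p = 2.21e-09), from 7.68 and 8.44 to 545 and 544 FPKM.

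CCL5 (RANTES), which attracts T cells and monocytes through several CC receptors, was listed at 0 in all 4 libraries without cytokines. It was at 122 and 112 FPKM in inflamed hIECs and at 211 in both libraries of inflamed hIECs with PM10. The difference was called in both comparisons (limma adjusted p = 8.20e-10 and 3.55e-10), and since the groups without cytokines are at 0, no fold change is given.

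CCL11 (eotaxin), which attracts eosinophils through CCR3, was under 1 FPKM in every library without cytokines. It was at 0.252 and 0.395 FPKM in normal hIECs and at 14.9 and 15.7 in inflamed hIECs, a difference of 3.63 on the log2 scale (standard error 0.089, limma adjusted p = 1.12e-07). With PM10 in both groups it went from 0.547 and 0.423 to 15.5 and 17.01 FPKM, a difference of 3.54 (limma adjusted p = 1.02e-07). The means differed 47.5-fold and 33.5-fold, with a denominator close to the lowest values that the tables hold, and at a pseudocount of 0.1 the log2 differences were 5.21 and 4.81.

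CX3CL1, the ligand of CX3CR1, had the smallest change of the 5. It was at 8.09 and 7.34 FPKM in normal hIECs and at 19.9 and 20.9 in inflamed hIECs, a 2.65-fold difference of the means and 1.30 on the log2 scale (standard error 0.064, limma adjusted p = 3.63e-06). With PM10 in both groups it went from 8.0004 and 8.35 to 18.5 and 19.1 FPKM, a 2.30-fold difference and 1.11 on the log2 scale (limma adjusted p = 5.59e-06).

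CCL8 and CCL13, monocyte chemoattractants of the same chromosome 17 cluster, and CCL20, the ligand of CCR6 that epithelial cells are known to make, were listed at 0 in all 8 libraries. CCL8 and CCL13 were thus listed at 0 in the same libraries in which CCL2 stood at 51.9 to 1511 FPKM. Transcripts of 8 housekeeping genes (GAPDH, ACTB, EEF1A1, TBP, HPRT1, B2M, PPIA and POLR2A) were above 0 in every library. That does not show whether a weak transcript of CCL8, CCL13 or CCL20 would have been seen.

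The order of the genes differed with and without cytokines. In normal hIECs it was CCL2, CX3CL1, CCL7, CCL11, and in normal hIECs with PM10 the values of CX3CL1 (8.0004 and 8.35 FPKM) lay within the range of CCL7 (7.68 and 8.44). In inflamed hIECs it was CCL2, CCL7, CCL5, CX3CL1, CCL11, with no overlap between neighbours, and it was the same in inflamed hIECs with PM10. The summed FPKM of the 8 genes was 64.7 and 67.7 in normal hIECs, 82.8 and 84.4 with PM10, 1473 and 1463 in inflamed hIECs, and 2286 and 2302 in inflamed hIECs with PM10.

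To examine PM10 exposure alone, normal hIECs with PM10 were compared with normal hIECs. limma called CCL2 and CCL7 higher, where 5.51% of all genes tested were called higher and 3.72% lower. Of the genes called in this comparison, 59.7% were higher, against 42.9% under median centring and 49.8% under quantile normalization. This comparison shares the normal libraries with that of inflamed and normal hIECs.

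CCL7 was higher in both libraries with PM10 (7.68 and 8.44 FPKM) than in both without (4.46 and 3.94), with a 1.92-fold difference of the means and 0.80 on the log2 scale (standard error 0.064, limma adjusted p = 0.00148). CCL2 rose 1.24-fold, by 0.31 on the log2 scale (standard error 0.048, limma adjusted p = 0.0133), and its values without PM10 (51.9 and 56.0 FPKM) did not overlap those with it (66.5 and 67.2). The call of CCL2 was lost without either library of normal hIECs with PM10 (limma adjusted p = 0.0835 and 0.0870) and with only these 2 groups fitted (limma adjusted p = 0.0896, where all alternatives spanned 0.00367 to 0.0896). CCL11 differed by 0.17 (95% interval -0.040 to 0.37, limma adjusted p = 0.254) and CX3CL1 by 0.075 (-0.075 to 0.22, limma adjusted p = 0.472) on the log2 scale, and neither was called. The values of CCL11 with PM10 (0.547 and 0.423 FPKM) lay above those without (0.252 and 0.395), whereas those of CX3CL1 overlapped. How many of all genes did not overlap in this comparison was not counted, so the order is a description. CCL5 was at 0 in all 4 libraries.

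Inflamed hIECs with PM10 were then compared with inflamed hIECs. limma called CCL2, CCL5 and CCL7 higher, where 6.22% of all genes tested were called higher and 9.02% lower. Of the genes called, 40.8% were higher, against 50.8% under quantile normalization. The calls of the 3 chemokines were kept under every alternative run, including median centring, quantile normalization and the removal of any library, with limma adjusted p-values of at most 0.0193.

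CCL7 showed the largest difference of the 8 genes in this comparison. It was at 226 and 224 FPKM without PM10 and at 545 and 544 with it, a 2.42-fold difference of the means and 1.27 on the log2 scale (standard error 0.064, limma adjusted p = 0.000123). CCL5 went from 122 and 112 to 211 FPKM in both libraries, a 1.80-fold difference and 0.85 on the log2 scale (standard error 0.058, limma adjusted p = 0.000334). CCL2 went from 1089.6 and 1090.4 to 1496 and 1511 FPKM, a 1.38-fold difference and 0.46 on the log2 scale (standard error 0.048, limma adjusted p = 0.00156). For each of these 3 genes both libraries with PM10 lay above both without, which is a description. The share of all genes with such an order was not counted. For a single gene, an exact permutation test (two-sided) cannot give it a p under 0.333. In the same comparison limma called 6 of the 10 mesenchymal markers lower and 1 higher, where 9.02% of all genes tested were called lower and 6.22% higher. Of the leukocyte markers only CD68 could be tested. It was called higher, at 0.399 and 0.333 FPKM without PM10 and 1.11 and 1.83 with it. CD68 passed the filter only through these libraries with PM10, so its call is a description. The part of these markers in the chemokine values was not tested.

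CCL11 and CX3CL1 were not called in inflamed hIECs with PM10. CCL11 differed by 0.077 on the log2 scale (95% interval -0.13 to 0.28, limma adjusted p = 0.589), and its libraries overlapped. CX3CL1 was at 18.5 and 19.1 FPKM with PM10, below the 19.9 and 20.9 without it, a difference of -0.11 (-0.26 to 0.037, limma adjusted p = 0.268). The upper ends of these intervals, 0.28 for CCL11 and 0.037 for CX3CL1, lay below the lower ends for CCL2, CCL5 and CCL7, which were 0.35, 0.71 and 1.12. The difference between genes was not tested.

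**Figure D2:**
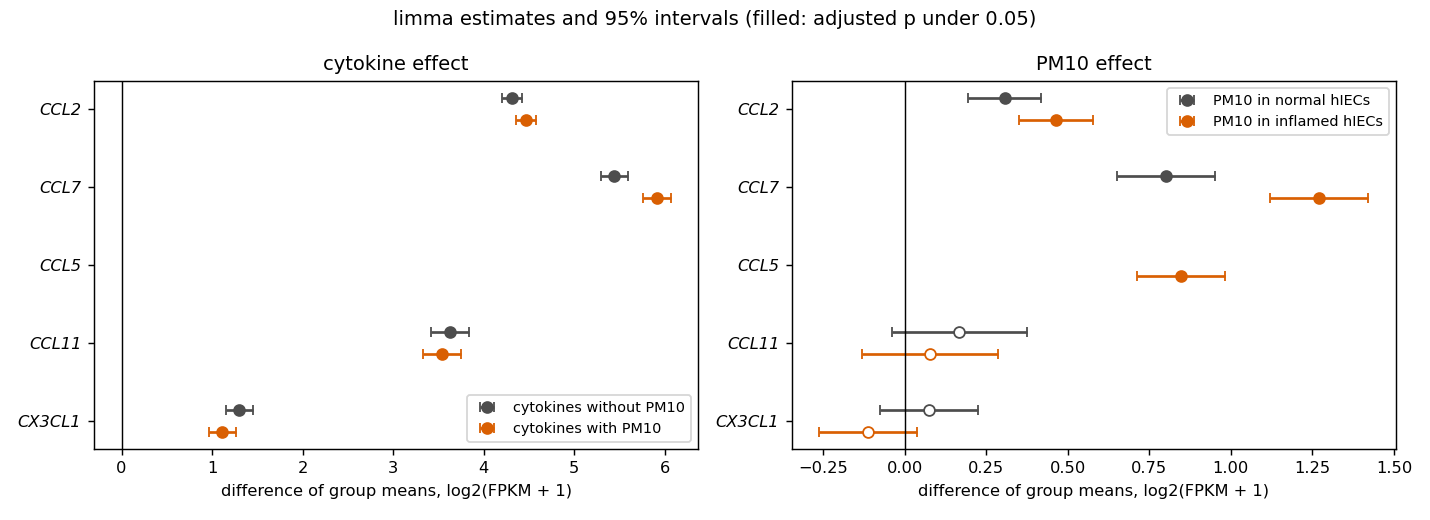
Differences of group means on the log2(FPKM + 1) scale with 95% intervals from limma, for cytokines without and with PM10 (left) and PM10 in normal and inflamed hIECs (right); filled points were called, and a gene with a group at 0 has no point. The cytokine differences lie between 1.11 and 5.91, and with PM10 only CCL2, CCL7 and, in inflamed hIECs, CCL5 have filled points.

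Whether the response to PM10 differed between inflamed and normal hIECs was tested by the interaction of PM10 and cytokines. limma called it higher for CCL5 and CCL7, where 2.11% of all genes tested were called higher and 4.48% lower. Of the genes called, 32.0% were higher, against 45.7% under median centring and 46.6% under quantile normalization. For CCL7 the PM10 difference was larger in inflamed hIECs by 0.47 on the log2 scale (standard error 0.091, limma adjusted p = 0.0293). With a smaller pseudocount it was 0.41 at 0.5 and 0.35 at 0.1, and not called (limma adjusted p = 0.0525 and 0.0936). It was also not called without any one of the 6 libraries of the groups with PM10 or cytokines (limma adjusted p = 0.0540 to 0.102), or without the variance trend (limma adjusted p = 0.05002), and the range across the alternatives was 0.00399 to 0.102. For CCL5 the interaction was 0.85 (limma adjusted p = 0.00235), which is its PM10 difference in inflamed hIECs, since it was at 0 in normal hIECs with and without PM10. CCL2 had an interaction of 0.16 (95% interval -0.0016 to 0.32, limma adjusted p = 0.215), which was called without the first normal library (0.21, limma adjusted p = 0.0267), CX3CL1 of -0.19 (-0.40 to 0.024, limma adjusted p = 0.264) and CCL11 of -0.090 (-0.38 to 0.20, limma adjusted p = 0.718).

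Ratios within a library do not depend on scaling between libraries and were therefore set beside the levels. CCL7 stood at 0.0861 and 0.0704 of the FPKM of CCL2 in normal hIECs, 0.115 and 0.126 with PM10, 0.208 and 0.205 in inflamed hIECs, and 0.364 and 0.360 in inflamed hIECs with PM10. The 4 groups did not overlap, and the ratio was higher with cytokines and with PM10. CCL5 stood at 0.112 and 0.103 of CCL2 in inflamed hIECs and at 0.141 and 0.1395 with PM10. CX3CL1 fell behind CCL2 in the same libraries, from 0.156 and 0.131 in normal hIECs to 0.0183 and 0.0192 in inflamed hIECs and 0.0124 and 0.0127 with PM10. CCL2 made up 80.2% and 82.7% of the summed FPKM of the 8 genes in normal hIECs and 65.5% and 65.6% in inflamed hIECs with PM10, where CCL7 made up 23.8% and 23.6%. These ratios were chosen after the levels were known and carry no test.

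**Figure D3:**
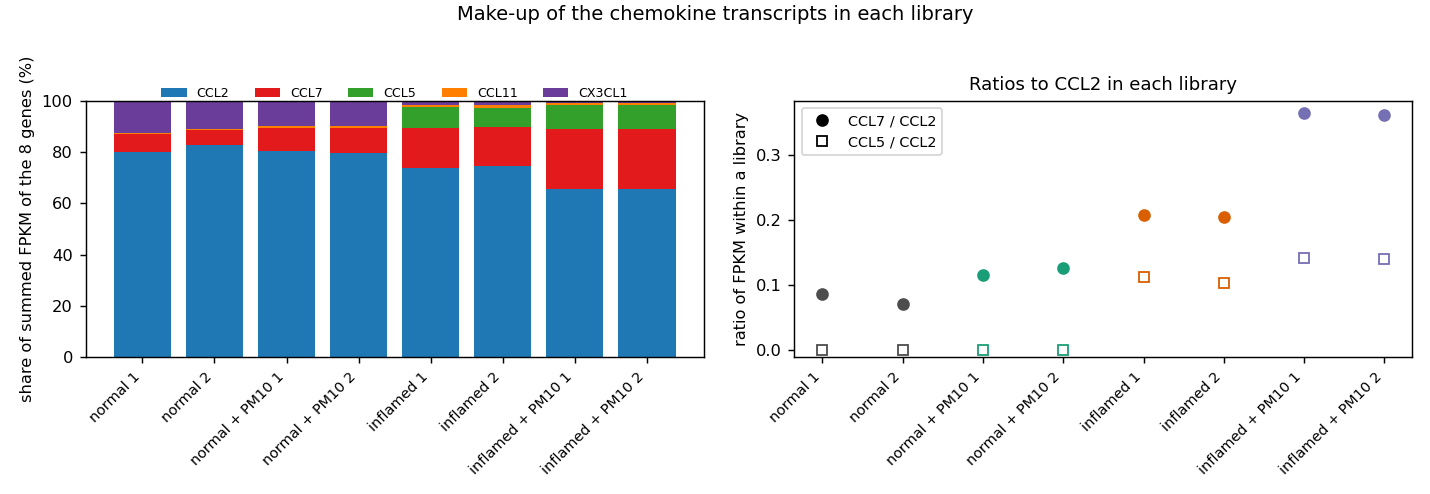
Left, share (%) of each gene in the summed FPKM of the 8 chemokine genes in each library; right, FPKM of CCL7 (filled circles) and CCL5 (open squares) divided by that of CCL2 in the same library. The ratio of CCL7 to CCL2 runs from 0.0704 to 0.0861 in normal hIECs and from 0.360 to 0.364 in inflamed hIECs with PM10.

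Of 20 other CC chemokine genes, 19 were in the tables, 11 of these were listed at 0 in all libraries, and 3 could be tested. In inflamed against normal hIECs all 3 were called higher, with a median of 2.18 on the log2 scale, against a median of -0.028 over all genes tested. CCL1 and CCL3 reached 1 FPKM only in libraries with cytokines, so their calls and the median follow largely from the filter and are a description. CCL3L1, a near-identical copy of CCL3 whose value is uncertain for that reason, was at 8.15 and 7.41 FPKM in normal hIECs and at 40.4 and 37.4 in inflamed hIECs (2.18, standard error 0.085, limma adjusted p = 1.10e-06). CCL3, a ligand of CCR1 that overlaps its antisense gene, was at 0.311 and 0 and at 9.53 and 10.2 FPKM (3.25, limma adjusted p = 1.27e-06).

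In inflamed hIECs with PM10 against inflamed hIECs, 1 of the 3 was called higher and 1 lower, where 6.22% of all genes tested were called higher and 9.02% lower. The median was -0.29 (-0.0061 over all genes). CCL1, the ligand of CCR8, was at 0 in the 4 libraries without cytokines, at 0.458 and 0.285 FPKM in inflamed hIECs and at 3.43 and 3.39 with PM10 (1.69, standard error 0.10, limma adjusted p = 0.000207). Its call was kept under the alternatives in which it could be tested. It passed the filter only through the 2 libraries where it was highest, and could not be tested without either of them. CCL3L1 fell by 0.51 with PM10, to 26.9 and 27.1 FPKM (limma adjusted p = 0.00965), and this call was lost without the first inflamed library or either inflamed library with PM10 (limma adjusted p = 0.0589 to 0.0688). In normal hIECs with PM10 none of the 3 was called by limma, with a median of 0.21 against 0.059 over all genes. The interaction was called lower for CCL3L1 (-0.72, limma adjusted p = 0.0193) and higher for CCL1, where 4.48% of all genes tested were called lower and 2.11% higher. For CCL3L1 it was not called without several single libraries. CCL1 was at 0 without cytokines, so its interaction call is a description.

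The receptors of these chemokines were close to absent. Of 15 receptor genes, 11 were listed at 0 in all 8 libraries, among them CCR1, CCR2, CCR3, CCR6 and CCR8, and none reached the minimum for the test. CX3CR1, the receptor of CX3CL1, was at 0 without cytokines and at 0.311 to 0.452 FPKM with them. CCR10 was at 0.292 to 0.642 FPKM across the 8 libraries, ACKR1 between 0 and 0.729, and ACKR4 between 0 and 0.491. The values of CCR10 and ACKR4 are uncertain because each shares exon bases with 2 other genes.

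Of 8 genes for proteases that shed or cut chemokines, 6 could be tested. In inflamed against normal hIECs 4 were called higher and 1 lower, where 25.9% of all genes tested were called higher and 30.3% lower. The median of the 6 was 0.39 (-0.028 over all genes). CTSS, cathepsin S, was at 0 in the 4 libraries without cytokines and at 12.4 and 12.6 FPKM in inflamed hIECs (limma adjusted p = 2.29e-08). It passed the filter only through the libraries with cytokines, so its call is a description. ADAM10, a sheddase of CX3CL1, rose from 5.97 and 5.46 to 7.71 and 8.12 FPKM (0.41, limma adjusted p = 0.00155). MMP1 and MMP14 rose by 0.71 and 0.36 on the log2 scale and MMP2 fell by 0.37 (limma adjusted p = 0.00112, 0.00147 and 0.00222). With PM10 in both groups 3 were called higher, CTSS, MMP1 and ADAM10, where 25.8% of all genes tested were. MMP14 was called lower (-0.21, limma adjusted p = 0.0154), where 39.6% of all genes tested were. The median was 0.30 against -0.11 over all genes. The call of MMP14 was lost without the second normal library with PM10 or either inflamed library with PM10 (limma adjusted p = 0.0612 to 0.0819). In normal hIECs with PM10, 2 of the 6 were called higher, MMP1 (0.70, limma adjusted p = 0.0131) and MMP14 (0.70, limma adjusted p = 0.00179), where 5.51% of all genes tested were. The median was 0.18, against 0.059 over all genes. The call of MMP1 was lost with only the 2 groups fitted (limma adjusted p = 0.0560) and without the second normal library or either normal library with PM10 (limma adjusted p = 0.0514 to 0.0838).

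With PM10 in inflamed hIECs, 3 of the 6 proteases were called higher, where 6.22% of all genes tested were. The median was 0.27, against -0.0061 over all genes. MMP1 rose from 2.54 and 2.89 to 6.77 and 7.72 FPKM (1.15, limma adjusted p = 0.00120), and MMP2, which is known to cut CCL7, rose from 60.0 and 57.9 to 93.2 and 89.1 FPKM (0.62, limma adjusted p = 0.00170). CTSS rose to 16.4 and 15.95 FPKM (0.35, limma adjusted p = 0.0156), a call that was lost at a pseudocount of 0.1 (limma adjusted p = 0.111) and without any one library of the 2 groups compared (limma adjusted p = 0.0832 to 0.105). The interaction was called higher for MMP2 (0.44, limma adjusted p = 0.0366) and lower for MMP14 (-0.57, limma adjusted p = 0.0112), where 2.11% of all genes tested were called higher and 4.48% lower. For both genes it was not called without several single libraries. For MMP2 it was also not called with no filter (limma adjusted p = 0.0563) or without the variance trend (limma adjusted p = 0.0622).

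Of 12 genes for cytokine receptors and the factors downstream of them, all were tested. In inflamed against normal hIECs 7 were called higher and 1 lower, where 25.9% of all genes tested were called higher and 30.3% lower. The median was 0.69, against -0.028 over all genes. IRF1, a transcription factor that IFNγ induces, went from 4.21 and 3.09 FPKM in normal hIECs to 81.1 and 81.3 in inflamed hIECs (4.15, limma adjusted p = 1.66e-07). TNFAIP3 and NFKBIA, which restrain NF-κB, rose by 2.63 and 2.09, and NFKB1, a subunit of NF-κB, rose by 1.84 (limma adjusted p = 1.28e-07, 4.65e-07 and 4.64e-07). The gene called lower was IFNGR2, a subunit of the IFNγ receptor (-0.26, limma adjusted p = 0.0194), which was not called without either inflamed library (limma adjusted p = 0.0516 and 0.0978). With cytokines in the presence of PM10, 8 were called higher and 1 lower, where 25.8% of all genes tested were called higher and 39.6% lower. The median was 0.61 (-0.11 over all genes), and the gene called lower was TNFRSF1A, a TNFα receptor (-0.35, limma adjusted p = 0.000653).

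With PM10 alone 4 of the 12 were called higher, where 5.51% of all genes tested were, with a median of 0.18 against 0.059 over all genes. Among them were IRF1 (0.44, limma adjusted p = 0.0488), TNFRSF1A (0.31, limma adjusted p = 0.0157) and NFKB1 (0.32, limma adjusted p = 0.0212). Each of these 3 calls was lost without either normal library with PM10 and with only the 2 groups fitted, with limma adjusted p-values of up to 0.211, 0.0931 and 0.115. IRF1 and NFKB1 also lost them without the second normal library or one or more of the libraries with cytokines, and IRF1 at a pseudocount of 0.1 or 0.5, with no filter, under quantile normalization and without the trend (limma adjusted p = 0.0504 to 0.0713). With PM10 in inflamed hIECs 1 of the 12 was called higher by limma, where 6.22% of all genes tested were. The median was 0.11, against -0.0061 over all genes. TNFAIP3 went from 30.7 and 30.3 to 37.6 and 42.4 FPKM (0.38, limma adjusted p = 0.0112). That call was lost without either inflamed library or the second inflamed library with PM10 (limma adjusted p = 0.0653 to 0.0733). IRF1, NFKB1 and NFKBIA differed by -0.11, 0.0020 and -0.029 in the same comparison (limma adjusted p = 0.532, 0.995 and 0.80). The interaction was called for 1 of the 12, TNFRSF1A, as lower (-0.37, limma adjusted p = 0.0298), where 4.48% of all genes tested were. It was not called without the variance trend (limma adjusted p = 0.0573) or without several single libraries. IRF1, TNFAIP3, ADAM10, MMP1 and MMP2 share exon bases with other genes, and since the libraries do not mark strand, reads of both cannot be told apart.

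**Figure D4:**
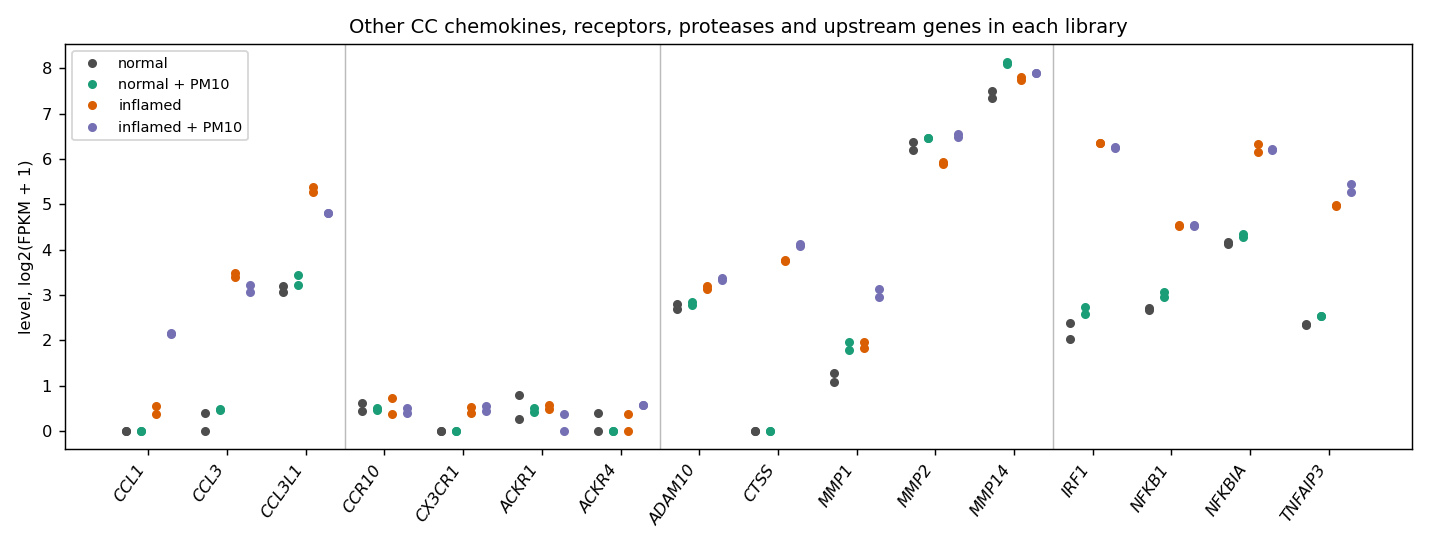
Level on the log2(FPKM + 1) scale of other CC chemokines, receptors, proteases and upstream genes (groups separated by grey lines) in each of the 8 libraries, coloured by group. The receptors lie below 1 in every library, and IRF1 and NFKB1 are higher in all 4 libraries with cytokines than in all 4 without.

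For each measured chemokine, the other genes with the closest pattern over the 8 libraries were found by the root mean square difference of log2 values centred on each gene's mean. Among the closest to CCL2 was ICAM1 (0.16), an adhesion molecule that leukocytes bind. CCL5 lay closest to OR2I1P (0.23), whose exons overlap UBD and GABBR1, and to IDO1 (0.27), which makes kynurenine from tryptophan. CCL11 lay closest to HLA-B (0.087) and the RNA gene AC004551.1 (0.11), and CX3CL1 to COL12A1 (0.057) and PRDX1 (0.061). CCL7 had no neighbour as near, with C1S at 0.54 and MMP9 at 0.59, and C1S was at 264 and 269 FPKM in inflamed hIECs and at 302 and 299 with PM10. The SD over the libraries was 2.89 for CCL7, 2.21 for CCL2, 3.66 for CCL5, 1.79 for CCL11 and 0.61 for CX3CL1, so a distance means less for a gene that moved less. These distances describe 8 libraries that share the same treatments and carry no test. ICAM1, IDO1, C1S, MMP9, HLA-B, AC004551.1 and PRDX1 also share exon bases with other genes, so their values are uncertain for that reason.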

How the data were processed

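RNA-seq covered 8 libraries in 4 groups of 2. The authors used poly-A selected, non-strand-specific libraries, removed adapters with Cutadapt, trimmed with Sickle, aligned reads to GRCh38 with HISAT2 and estimated gene levels with StringTie; the annotation release is not given in the sources used here. What the authors deposited is a table of FPKM per library. FPKM holds no read counts, so no count test was run. Values were analysed as log2(FPKM + 1), with a pseudocount of 1, by limma 3.58.1 (R 4.3.3) with a variance trend, all 8 libraries in one fit and Benjamini-Hochberg adjustment over 14206 genes within each of 5 comparisons. The fit was tested on simulated data. Replicate numbers were not used as pairs. Positions came from GENCODE release 44, which held 99.5% of the gene identifiers. Alternatives covered the pseudocount, filters, scaling, the trend, the groups in the fit, the replicate number and each library left out. The 8 genes, the gene lists and the tests were chosen with earlier results of these data known. Named are the 8 genes, up to 5 called genes per list by size of change in inflamed against normal hIECs, receptors above 0 and the closest 2 genes per chemokine; markers, housekeeping genes and motifs are named beside these, as are IFNGR2 and TNFRSF1A, chosen after their values were seen. Some genes that this rule covers are not reported here. Plots used Python 3.11.15, pandas 2.3.3 and matplotlib 3.10.9.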

Additional observations from a re-analysis of the deposited data

Results flagged for a closer look

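The effect of PM10 differed between inflamed and normal hIECs by limma's interaction test for CCL7 (0.47 on the log2 scale) and CCL5 (0.85). The CCL7 interaction was not called at a pseudocount of 0.1 or 0.5, without the variance trend, or without any one of the 6 libraries of the groups with PM10 or cytokines (limma adjusted p = 0.05002 to 0.102). Both libraries of inflamed hIECs with PM10 lay above both inflamed libraries for each gene, an order that concerns PM10 in inflamed hIECs and not the interaction. How many of all genes have this order was not counted. For CCL5 the normal libraries were all at 0, so a smaller response there could not have been seen.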

How the results depend on the processing

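In both cytokine comparisons the 5 measured chemokines were called under all alternatives run. CCL5 and CCL11 passed the filter only through the libraries with cytokines, so their calls there are a description. For PM10 in inflamed hIECs 3 were called under all alternatives run. For PM10 in normal hIECs 2 were called, 1 with only these 2 groups in the fit, and 1 to 2 with one library left out. For the interaction 2 were called, 1 at a pseudocount of 0.1, 1 at 0.5 and 1 without the trend, and 1 to 3 with one library left out. Of the interaction calls, that of CCL5 only repeats its PM10 difference in inflamed hIECs, because CCL5 was at 0 in every library without cytokines. It is a description. CX3CL1 with PM10 in normal hIECs, not called, turned to -0.00089 under quantile normalization. Over all genes, PM10 in normal hIECs gave 1311 calls, 239 with 2 groups in the fit and 192 to 2601 with one library left out (2601 without the first normal library), PM10 in inflamed hIECs 2165 and as few as 672, and the interaction 937 and as few as 260. Same-numbered libraries deviated together weakly (correlations across genes of -0.0015 to 0.079), so the numbers were not taken as pairs. With the replicate number as a block, 5, 5, 2, 3 and 2 chemokines were called. A group left with 1 library was assumed to vary like the others. The causes were not tested. Values above 0 began at about 0.2 FPKM, and lower levels could not be told from 0.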
